A study of Mus musculus with 3 samples.

Results

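Heat shock proteins and chaperones are proteins that hold, fold, refold or hand on other proteins, and 36 mouse genes of this kind were taken from a list of symbols. A gene was measured where the platform annotation gave at least 1 probe set with its symbol alone, which was the case for 34 of the 36, of 18193 genes measured in this way in all. The 34 genes carried 97 of the 34945 probe sets with 1 symbol. Hsp90ab1 and Hsf1 had no such probe set and were not analysed here. By their usual descriptions the measured genes were divided into 10 inducible cytosolic chaperones, 10 constitutive cytosolic chaperones, 3 subunits of the cytosolic chaperonin, 6 chaperones of the endoplasmic reticulum (ER), 4 mitochondrial chaperones and 1 heat shock factor. Induction by stress was not measured here, so a class name does not show how a member behaves in these cells.

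The cells came from fetal kidneys of mice carrying the transgene Tg(Meis1-EGFP)FO156Gsat on a CD-1 background, at E15.5 (embryonic stage, Theiler stage 23), with sex not determined. Approximately 20 kidneys made a pool, the pool was digested in trypsin for 5 min at 37 °C and passed through a 70 micron mesh, and EGFP-positive cells were collected by flow sorting. Total RNA was amplified in 2 rounds and hybridised to Affymetrix arrays, 1 pool per array, giving 3 arrays of a single group (replicates 1, 2 and 3). The green protein marks cells in which the Meis1 regulatory region of the transgene is active, and the labels call the population nephrogenic interstitium in one place and peripheral blastema in another. No unsorted kidney, undissociated kidney or EGFP-negative cells were analysed here, so whether digestion or sorting changed any chaperone transcript was not tested. In a sorted pool, fewer expressing cells and less RNA per cell cannot be told apart.

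Cytosolic Hsp70 proteins bind exposed hydrophobic stretches of unfolded proteins under the control of J-domain partners and nucleotide exchange factors, and pass some of them to Hsp90 or to the ring-shaped chaperonin. Heat and other stresses that unfold proteins activate heat shock factor 1, which binds inverted repeats of the pentamer nGAAn, while misfolding inside the ER acts through a separate unfolded protein response on ER stress elements. Constitutive members such as Hspa8 are made in most cells without stress.

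Each signal was set against a background level of its own array, the 95th percentile of 72 chemosensory receptor genes, which are genes of sensory neurons. That level was a signal of 135, 185 and 168 in replicates 1, 2 and 3, where the median signals of the arrays were 143, 162 and 187. The distance of a gene is its log2 signal minus this level, so a distance of 0 is the background level itself. A gene was called above background where limma's one-sided test of the distance over the 3 arrays passed an adjusted p of 0.05 after Benjamini-Hochberg adjustment over all genes. Distances are given with the moderated SE, n = 3. Where an array is called high or low for a gene, this refers to the signals as deposited, and the order of the arrays can change with the background level or with centring. All 8 markers of nephrogenic interstitium were above background (distances 7.47 for Foxd1 and 6.84 for Meis1, range 4.31 to 7.60), beside 57.3% of all genes. So were 4 of 6 cap mesenchyme, 3 of 6 ureteric bud and 1 of 4 early nephron markers. The highest of these lists were Gdnf at 7.37, Epcam at 4.13 and Jag1 at 3.08. Of the remaining lists, 3 of 5 endothelial, 1 of 6 macrophage and leukocyte and 0 of 5 erythroid markers were above background. Tek was the highest endothelial marker at 2.86, and Csf1r the highest macrophage and leukocyte marker at 1.15. Which cells gave these signals was not tested. Of 8 immediate early genes, which are known to be switched on during tissue dissociation, 7 were above background, with distances up to 7.98 and Fos at 7.17 ± 0.20. The part of these in the chaperone signals was not tested.

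Of the 34 chaperone genes, 32 (94.1%) were above background, and the same number lay above it on every one of the 3 arrays. Of all 18193 genes, 10432 (57.3%) were above background. The median distance was 6.77 over the 34 members and 1.52 over all genes. The 2 members not above background were Cryab and Hsf2. Probe sets differ in affinity, so distances are not ranked between genes, and a gene not above background is not thereby shown to be without transcript. Whether the 3 pools stem from different litters is not stated in the labels. The p-values therefore speak of the scatter among these arrays alone, and part of it may be technical.

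**Figure D1:**
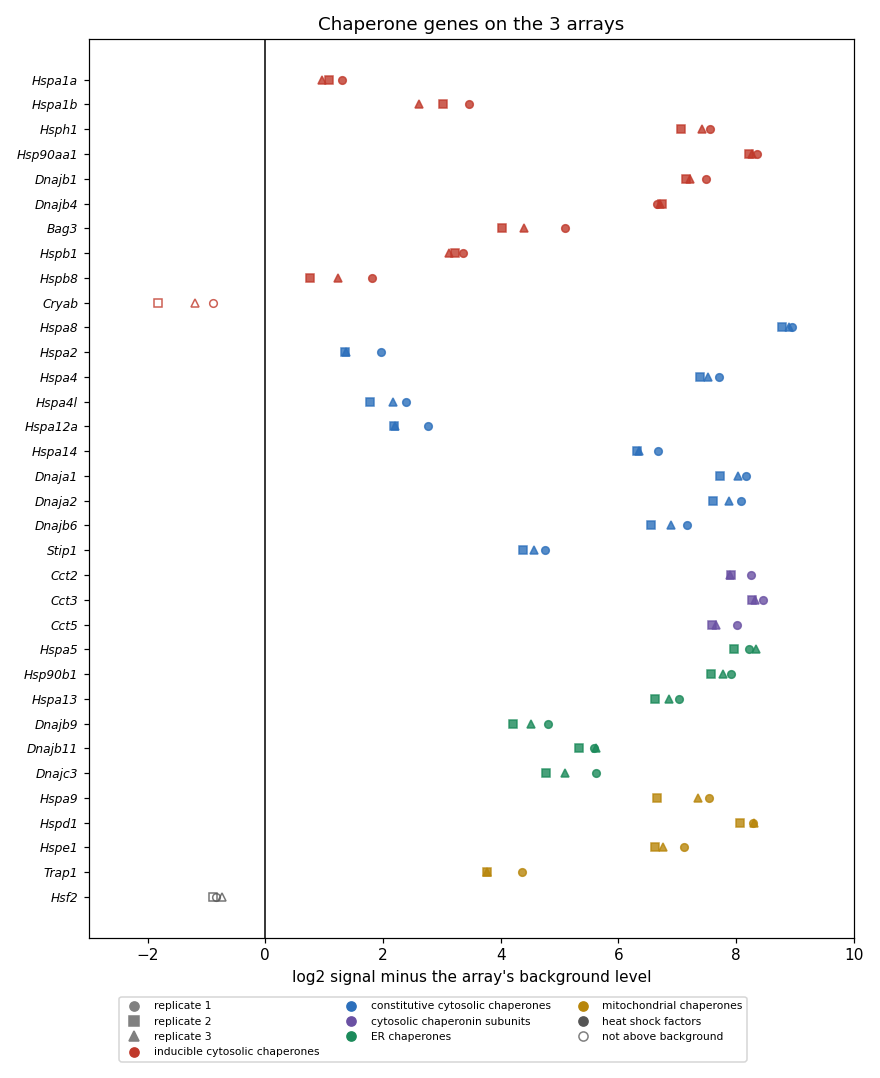
Distance of each measured chaperone gene from the background level of its own array (x axis, log2 signal minus background level), with circles for replicate 1, squares for replicate 2 and triangles for replicate 3, and colours for the classes. The 32 filled genes lie right of 0 on every array, and the open symbols of Cryab and Hsf2 lie left of it.

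Among the inducible cytosolic chaperones, 9 of 10 were above background, with a median distance of 3.87. Hspa1b, a gene of the stress-inducible Hsp70, gave signals of 1489, 1493 and 1028 in replicates 1, 2 and 3, 8.17-fold over background (3.03 ± 0.24, limma adjusted p = 2.54e-05). Replicate 3 was the low array for this gene and the other two were alike. Hspa1a, the neighbouring copy of the same protein, gave 332, 390.3 and 328, with a distance of 1.11 ± 0.21 (limma adjusted p = 0.00172), and its highest signal was in replicate 2. The 2 genes are near-identical copies, so their probe sets may share signal and the split between them is uncertain. All 3 probe sets of Hspa1b were above background, at distances of 3.03, 2.13 and 1.53, and each was lowest in replicate 3.

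The promoters of the Hsp70 pair and of other members are shown because they carry whole or partial forms of the repeats that heat shock factors and the ER stress response are known to use. Windows of 300 bases (250 before to 50 after the gene start) are RefSeq sequence of assembly GRCm38.p6, and 29 of the 36 members had one. Named only, with no window, are Hspa13, Hspa9, Hsf1, Hsp90ab1, Hsp90aa1, Cryab and Hspa8. Both strands were searched for the 3-unit repeat GAANNTTCNNGAA, for the pairs GAANNTTC and TTCNNGAA, both of which each 3-unit repeat contains, and for the ER stress element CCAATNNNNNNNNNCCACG, and capitals mark the matches. The first 4 sequences are from Hspb1 (chr5:135887669-135887968, plus strand), Hspa1b (chr17:34959189-34959488, minus strand), Hsph1 (chr5:149636287-149636586, minus strand) and Hspe1 (chr1:55087898-55088197, plus strand). Hsph1 and Hspe1 carry the 3-unit repeat, and Hspb1 and Hspa1b carry only the pair GAANNTTC. The last 3 carry ER stress elements, from Hspa5 (chr2:34771840-34772139, plus strand), Hsp90b1 (chr10:86705395-86705694, minus strand) and Dnajc3 (chr14:118937682-118937981, plus strand).
Hspb1: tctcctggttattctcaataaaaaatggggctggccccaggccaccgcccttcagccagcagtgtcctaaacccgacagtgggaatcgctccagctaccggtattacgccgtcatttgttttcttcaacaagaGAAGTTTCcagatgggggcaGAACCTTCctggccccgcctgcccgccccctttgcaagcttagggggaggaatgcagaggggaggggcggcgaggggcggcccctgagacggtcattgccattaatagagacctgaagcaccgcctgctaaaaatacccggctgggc
Hspa1b: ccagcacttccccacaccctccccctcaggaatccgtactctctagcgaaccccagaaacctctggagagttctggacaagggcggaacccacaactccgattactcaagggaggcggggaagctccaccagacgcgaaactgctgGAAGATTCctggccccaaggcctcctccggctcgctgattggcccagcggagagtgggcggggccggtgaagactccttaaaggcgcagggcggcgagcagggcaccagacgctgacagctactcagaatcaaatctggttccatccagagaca
Hsph1: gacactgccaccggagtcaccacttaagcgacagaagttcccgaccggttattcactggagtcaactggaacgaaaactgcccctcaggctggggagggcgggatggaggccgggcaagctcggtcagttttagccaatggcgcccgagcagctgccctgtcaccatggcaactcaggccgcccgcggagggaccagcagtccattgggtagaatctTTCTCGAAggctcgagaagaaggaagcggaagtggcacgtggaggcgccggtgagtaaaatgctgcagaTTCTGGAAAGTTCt
Hspe1: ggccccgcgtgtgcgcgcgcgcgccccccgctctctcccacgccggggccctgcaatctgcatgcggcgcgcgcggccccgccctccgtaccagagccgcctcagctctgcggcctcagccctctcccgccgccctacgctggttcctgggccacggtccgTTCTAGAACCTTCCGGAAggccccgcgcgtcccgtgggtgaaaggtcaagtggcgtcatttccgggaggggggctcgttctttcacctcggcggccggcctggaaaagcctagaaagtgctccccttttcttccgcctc
Hspa5: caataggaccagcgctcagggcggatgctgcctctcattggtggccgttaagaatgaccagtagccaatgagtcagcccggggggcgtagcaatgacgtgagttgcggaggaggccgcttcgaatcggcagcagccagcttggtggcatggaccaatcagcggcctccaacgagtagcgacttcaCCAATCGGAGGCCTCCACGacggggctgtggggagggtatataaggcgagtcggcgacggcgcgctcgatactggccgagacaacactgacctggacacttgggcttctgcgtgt
Hsp90b1: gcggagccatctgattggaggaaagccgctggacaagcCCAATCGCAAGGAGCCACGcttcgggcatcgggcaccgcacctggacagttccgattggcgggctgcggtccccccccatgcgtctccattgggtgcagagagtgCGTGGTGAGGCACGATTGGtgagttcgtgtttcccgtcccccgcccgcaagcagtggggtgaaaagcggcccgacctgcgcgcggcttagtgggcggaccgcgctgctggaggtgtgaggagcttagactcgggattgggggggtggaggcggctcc
Dnajc3: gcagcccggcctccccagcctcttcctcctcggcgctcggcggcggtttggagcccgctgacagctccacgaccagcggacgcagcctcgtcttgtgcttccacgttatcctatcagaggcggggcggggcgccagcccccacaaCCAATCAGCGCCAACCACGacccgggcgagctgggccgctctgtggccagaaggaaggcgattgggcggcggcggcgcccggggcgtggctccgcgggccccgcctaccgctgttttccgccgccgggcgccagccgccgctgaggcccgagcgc

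The pair GAANNTTC was found in the windows of 6 of the 8 inducible members that had a window, 2 of 9 constitutive cytosolic members, 1 of 3 chaperonin subunits, 0 of 5 ER members and 2 of 3 mitochondrial members, and in 7.86% of all 32851 promoters or 9.04% of the 27025 genes they belong to. A gene with several windows counts if any of them holds the letters. Hspa1b and Hspa1a carried it 104 bases before the start, in windows that differ at 4 of 300 bases. Hspb1 carried it at 117 and 97 bases before the start. In Bag3, Hspb8 and Hsph1 it began after the start, at 43, 3 and, in the printed window of Hsph1, 42 bases. The 3-unit repeat was found in Hsph1, Dnajb6, Hspd1 and Hspe1, that is in 4 of 29 members, and in 0.662% of all genes (0.603% of promoters). By class these were 1 of 8 inducible, 1 of 9 constitutive cytosolic and 2 of 3 mitochondrial members. In Hsph1 it began 37 bases after the start, and in Hspe1 a pair of overlapping repeats began 89 and 84 bases before it. Hspd1 and Hspe1 are transcribed away from each other, and their windows share 285 bases, so that both hold the same repeats. The pair TTCNNGAA was found in 6 of 29 members and in 9.60% of all genes (8.52% of promoters). By class these were 2 of 8 inducible, 1 of 9 constitutive cytosolic, 1 of 3 chaperonin, 0 of 5 ER and 2 of 3 mitochondrial members. The ER stress element was found in Hspa5, Hsp90b1 and Dnajc3, which are 3 of 5 ER members with a window, in 0 members of the other classes, and in 0.137% of all genes (0.119% of promoters). A match is a description of letters, and binding of any factor was not measured.

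Hsp90aa1, the inducible cytosolic form of Hsp90, gave signals of 43975, 54827 and 51818 in replicates 1, 2 and 3 and a distance of 8.28 ± 0.20 (limma adjusted p = 7.78e-07). Hsph1, an Hsp110 protein that exchanges nucleotide on Hsp70, gave 25525, 24831 and 28862 and lay 7.35 ± 0.22 above background. Both were bright on all 3 arrays, with replicate 2 the highest for Hsp90aa1 and the lowest for Hsph1. The J-domain partners of Hsp70 were Dnajb1, with signals of 24362, 26365 and 25079, and Dnajb4, with 13575, 19862 and 17594. Their distances were 7.29 ± 0.21 and 6.70 ± 0.20. For Hsp90aa1, 3 of 5 probe sets were above background and the other two lay at -0.49 and -1.30. Bag3, a co-chaperone that links Hsp70 and small heat shock proteins to autophagy, gave 4611, 3021 and 3537 (distance 4.51 ± 0.27), highest in replicate 1. Hspb1, a small heat shock protein that keeps unfolded proteins soluble, gave 1379, 1717 and 1462 and a distance of 3.23 ± 0.20, highest in replicate 2.

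Hspb8, the small heat shock protein that partners Bag3, gave signals of 475, 312 and 397 and a distance of 1.27 ± 0.27 (limma adjusted p = 0.00311). Like Bag3 it was highest in replicate 1 and lowest in replicate 2. Its call rests on 1 of its 3 probe sets, since the others lay at 0.27 and -0.54, and with the mean over its probe sets the distance was 0.53 (adjusted p = 0.0602). Cryab, the alpha B crystallin that is abundant in lens and muscle, gave 73.1, 52.3 and 73.1 and a distance of -1.30 ± 0.25, and 0 of its 3 probe sets were above background. All 3 arrays were below the level for it.

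Each of the 10 constitutive cytosolic chaperones was above background, with a median distance of 6.66. Hspa8, the cognate Hsp70 that folds newly made proteins and uncoats clathrin vesicles, gave 66559.8, 81226 and 79938 in replicates 1, 2 and 3 and a distance of 8.87 ± 0.20 (limma adjusted p = 7.78e-07). Hspa8's chosen probe set belongs to a kind that can cross-hybridise with related sequences, and its other 3 probe sets were also above background, at 8.25, 6.63 and 2.82. Hspa4, an Hsp110 exchange factor, gave 28268, 30769 and 31038 (distance 7.54 ± 0.21), with 3 of 4 probe sets above background. The 3 arrays differed little for Hspa4. The Hspa8 signals lay at the top of the range, as the highest signals of the arrays were 66559.8, 81986 and 81080 in replicates 1, 2 and 3. Hspa4l, a relative of Hspa4, gave 707, 638 and 757 and a distance of 2.12 ± 0.22, with 4 of 5 probe sets above background.

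The J-domain proteins Dnaja1 and Dnaja2, main partners of Hspa8, gave 38779.5, 39111 and 44137 and 36434, 35887 and 39769.7 in replicates 1, 2 and 3. Their distances were 7.98 ± 0.21 and 7.85 ± 0.21, and replicate 3 was the high array for both as deposited but the lowest of the 3 after centring on the array median. The chosen probe set of Dnaja2 can cross-hybridise, and its other 3 lay at 5.49, 5.15 and -0.07, the last not above background. Dnajb6, a J-domain protein that keeps aggregation-prone proteins apart, gave 19399, 17349 and 19933 (distance 6.87 ± 0.22), and all 4 of its probe sets were above background. Stip1, the adaptor that joins Hsp70 to Hsp90, gave 3653, 3831 and 3981 and a distance of 4.57 ± 0.21 from its single probe set. Hspa14, an Hsp70 of the ribosome-associated complex, gave 13715, 14679.6 and 13795 (distance 6.45 ± 0.21). Stip1 and Hspa14 were even across the arrays.

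A pair of constitutive members is usually described in particular tissues or settings. Hspa2, the Hsp70 needed in male germ cells, gave 529.7, 472 and 435 and a distance of 1.56 ± 0.23 (limma adjusted p = 0.000555). Hspa12a, a distant Hsp70 relative, gave 920.4, 838 and 771 and a distance of 2.38 ± 0.23 (limma adjusted p = 6.04e-05). Both were highest in replicate 1 and lowest in replicate 3. The call of Hspa12a rests on 1 probe set of a kind that can cross-hybridise, while its other 3 lay at -0.33, -3.19 and -3.85. Without probe sets of that kind Hspa12a lay at -0.33, and with the mean over its probe sets at -1.05.

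The chaperonin CCT, which folds actin and tubulin, was represented by 3 subunits, and all 3 were above background with a median distance of 8.02. Cct3 gave signals of 47161, 57186 and 54032 in replicates 1, 2 and 3, Cct2 gave 41302, 44718 and 40063 and Cct5 gave 35063, 35518 and 34032. The subunits lay at 8.35 ± 0.20, 8.02 ± 0.21 and 7.76 ± 0.21, each with a limma adjusted p of 7.78e-07. Replicate 2 was the high array for each of the 3 as deposited, where 33.1% of all genes above background were highest in it, and replicate 1 was the highest for 3 of 3 after quantile normalization and for 2 of 3 with median centring. The chosen probe set of Cct2 can cross-hybridise, and its other probe sets, both above background, lay at 7.15 and 6.68. Of the 7 probe sets of Cct3, 5 were above background and the other two lay at -0.75 and -1.25.

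All 6 ER chaperones were above background, with a median distance of 6.17. Hspa5 (BiP), the Hsp70 of the ER and a standard target of the unfolded protein response, gave 39989, 46439 and 54613 in replicates 1, 2 and 3 and a distance of 8.18 ± 0.21 (limma adjusted p = 7.78e-07). Hsp90b1 (Grp94), the Hsp90 of the ER, gave 32409, 35296 and 36898 and a distance of 7.75 ± 0.21. Both were highest in replicate 3 and lowest in replicate 1, and all of their probe sets (3 and 2) were above background. Dnajb11, a J-domain partner of BiP, gave 6453, 7440.2 and 8236 (distance 5.51 ± 0.20), in the same order. Dnajb9, another J-domain partner, gave 3769, 3425 and 3863, and Dnajc3, which is also known as an inhibitor of the kinase PERK, gave 6634, 5072 and 5741. They lay at 4.51 ± 0.22 and 5.16 ± 0.24, and for both replicate 2 was the low array. Hspa13, a microsomal Hsp70 relative, gave 17629.6, 18197 and 19515 and a distance of 6.84 ± 0.21. For Dnajc3, 4 of 5 probe sets were above background, and for Hspa13 3 of 4. The promoters of Hspa5, Hsp90b1 and Dnajc3 are those printed with ER stress elements, at 65 bases before the start in Hspa5, at 212 and 107 in Hsp90b1 and at 105 in Dnajc3.

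All 4 mitochondrial chaperones were above background, with a median distance of 7.01. Hspd1 (Hsp60) and Hspe1 (Hsp10), which together form the folding chamber of the matrix, gave 42134, 49802 and 53062 and 18791, 18128 and 18318 in replicates 1, 2 and 3. Their distances were 8.22 ± 0.20 and 6.83 ± 0.22. Hspd1 was lowest in replicate 1, and Hspe1 was even across the arrays. The chosen probe set of Hspe1 can cross-hybridise, and its other probe set was also above background, at 3.03. Hspa9 (mortalin), the Hsp70 of import into the matrix, gave 25233, 18617 and 27411 and a distance of 7.18 ± 0.25, with replicate 2 the low array. Of its 5 probe sets 3 were above background, and the other two lay at -2.01 and -3.43. Trap1, the mitochondrial Hsp90, gave 2782, 2530.4 and 2295, with a distance of 3.97 ± 0.23 and both probe sets above background.

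Hsf2, a heat shock factor known for roles in development, was the only measured factor of the list. It gave signals of 75.6, 99.6 and 101 in replicates 1, 2 and 3, a distance of -0.82 ± 0.20, and 0 of its 2 probe sets above background. Every array lay under the background level for it.

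Because a gene took its brightest probe set, the probe sets were also tested one by one. Of the 97 member probe sets, 76 (78.4%) were above background, against 17025 of all 34945 (48.7%). The median distance was 3.42 over the member probe sets and 0.51 over all probe sets. Of the 26 members with several probe sets, 14 had all of them above background, 10 had some and 2 had none, and the other 8 members had a single probe set that was above background. Among the inducible members 18 of 25 probe sets were above background, among the constitutive 27 of 33, among the chaperonin subunits 9 of 11, among the ER members 14 of 16, among the mitochondrial members 8 of 10 and for Hsf2 0 of 2. In 5 members called above background the chosen probe set can cross-hybridise with other transcripts, namely Hspa8, Hspa12a, Dnaja2, Cct2 and Hspe1.

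**Figure D2:**
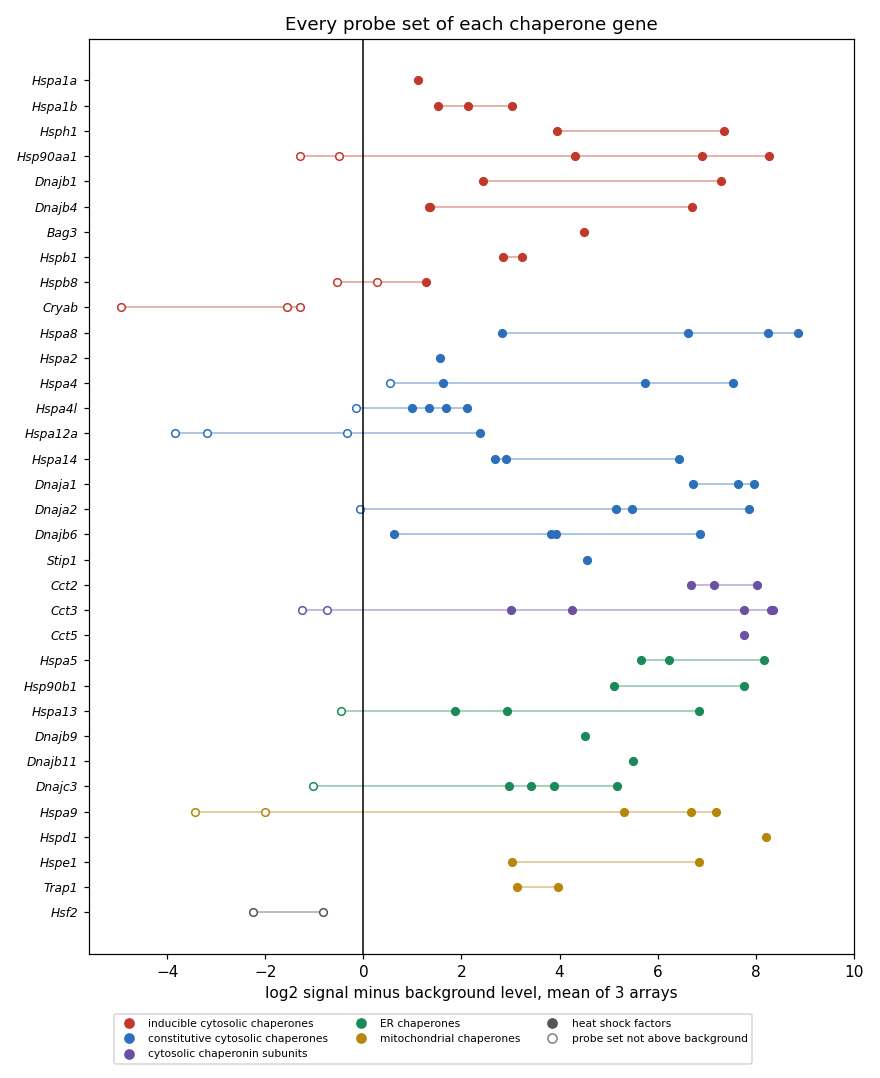
Distance of every probe set of each chaperone gene (x axis, log2 signal minus background level, mean of the 3 arrays), with a line joining the probe sets of a gene, filled points above background and open points not above it. Of 97 probe sets 76 are filled, and the widest spreads are those of Hspa9, Hsp90aa1 and Cct3, each with filled and open points.

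Differences between the arrays are given as a description, since each array is 1 pool and has no replicate of its own. With every array centred on its own median, the SD across the 3 arrays had a median of 0.20 log2 units over the 32 members above background and 0.27 over all 10432 such genes. With centring on the median of the genes above background, chosen after seeing the data, the medians were 0.15 and 0.16. Hspa1b was the one member whose SD (0.49) passed the 90th percentile of all genes above background (0.45), with deviations of 0.37, 0.19 and -0.55 in replicates 1, 2 and 3. For log2(signal + 50) the highest SD of a member was 0.43, that of Hspa1b, and the percentile 0.40. With that scaling Bag3 passed the percentile as well. Under the other scalings no member passed: the highest member SD was 0.33 and the percentile 0.34 with centring on genes above background, 0.31 and 0.34 without centring, and 0.33 and 0.35 after quantile normalization.

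The direction of the members' shift between arrays turned with the scaling. Centred on the array median, the members' median deviations were 0.15, 0.01 and -0.15 in replicates 1, 2 and 3, beside 0.22, 0.01 and -0.22 for all genes above background. Without centring the members had -0.04, 0.00 and 0.05, beside 0.03, 0.01 and -0.03 for all genes above background. The ER members were highest in replicate 3 in 5 of 6 cases without centring, where 26.0% of all genes above background were, and likewise in 5 of 6 with centring on genes above background (35.8% of all) and after quantile normalization (25% of all). They were highest there in 1 of 6 with median centring, where 4.1% of all were, and in 1 of 6 with log2(signal + 50) (5.98% of all).

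**Figure D3:**
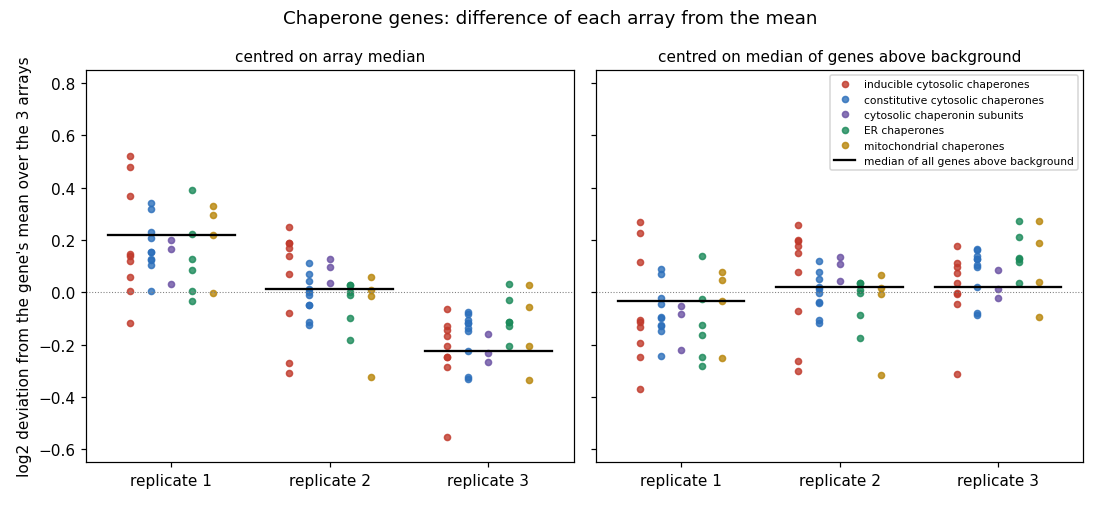
Deviation of each array from the gene's mean over the 3 arrays (y axis, log2 units) for the 32 chaperone genes above background, with each array centred on its median (left) or on the median of genes above background (right), points coloured by class and black bars for the median of all genes above background. On the left the members follow the bars at 0.22, 0.01 and -0.22. On the right the members' medians are -0.10, 0.02 and 0.10, beside bars at -0.03, 0.02 and 0.02. Hspa1b is the lowest point of replicate 3 on both sides.

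Genes that work with the members were counted from fixed lists, and 67 of 77 measured (87.0%) were above background, with a median distance of 4.70, beside 57.3% and 1.52 for all genes. Of the other CCT subunits 5 of 6 were above background, among them Tcp1 (8.27 ± 0.20) and Cct4 (7.72 ± 0.21), and Cct6b (-1.39 ± 0.21), a subunit described in testis, was not. All 6 prefoldin subunits, which deliver actin and tubulin to CCT, were above background, with Vbp1 at 6.15 ± 0.21 and Pfdn1 at 1.09 ± 0.29. So were all 14 measured co-chaperones of Hsp90 and Hsp70, with Cdc37, which brings kinases to Hsp90, at 5.45 ± 0.23 and Ahsa1, which stimulates its ATPase, at 6.65 ± 0.24. All 13 other DnaJ proteins measured were above background, including the mitochondrial Dnaja3 (5.68 ± 0.24) and Dnaja4 (1.52 ± 0.20).

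Of the other small heat shock proteins and Hsp70 relatives, 1 of 8 was above background. Hspa12b, an Hsp70 relative described in endothelium, gave 1318, 1398 and 1061 in replicates 1, 2 and 3 and lay at 2.95 ± 0.23 (limma adjusted p = 1.89e-05). Of the 5 endothelial markers 3 were above background, at a median of 1.07 for the list, and their part in the Hspa12b signal was not tested. Hspb2, a small heat shock protein of muscle, gave 68.8, 175 and 85.8 and a distance of -0.67 ± 0.26. The remaining 6, named although outside the naming rule, were Hspb3, Hspb6, Hspb7, Hspb9, Cryaa and Hspa1l, and their distances lay between -4.80 and 0.24. Cryab, not above background among the members, is of the same protein family as Hspb2 and Cryaa.

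In the ER, all 14 other folding factors were above background, among them the lectin chaperones Calr (7.12 ± 0.20) and Canx (8.07 ± 0.20). Serpinh1, the collagen chaperone, was chosen after its values were seen and gave 21628, 21628 and 20134 (distance 7.03 ± 0.22). Of 8 genes of unfolded protein response signalling 7 were above background, including its transcription factors Xbp1 (6.67 ± 0.22) and Atf4 (5.20 ± 0.28), while Trib3, a known target of Atf4, lay at -0.23 ± 0.29. The 6 other mitochondrial folding factors and proteases were above background, with the exchange factors of Hspa9, Grpel1 and Grpel2, at 5.97 ± 0.22 and 4.80 ± 0.21. Hsbp1, a small protein that binds heat shock factor 1, lay at 5.75 ± 0.23, and Hsf4, the heat shock factor of the lens, was not above background at -0.55 ± 0.36.

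**Figure D4:**
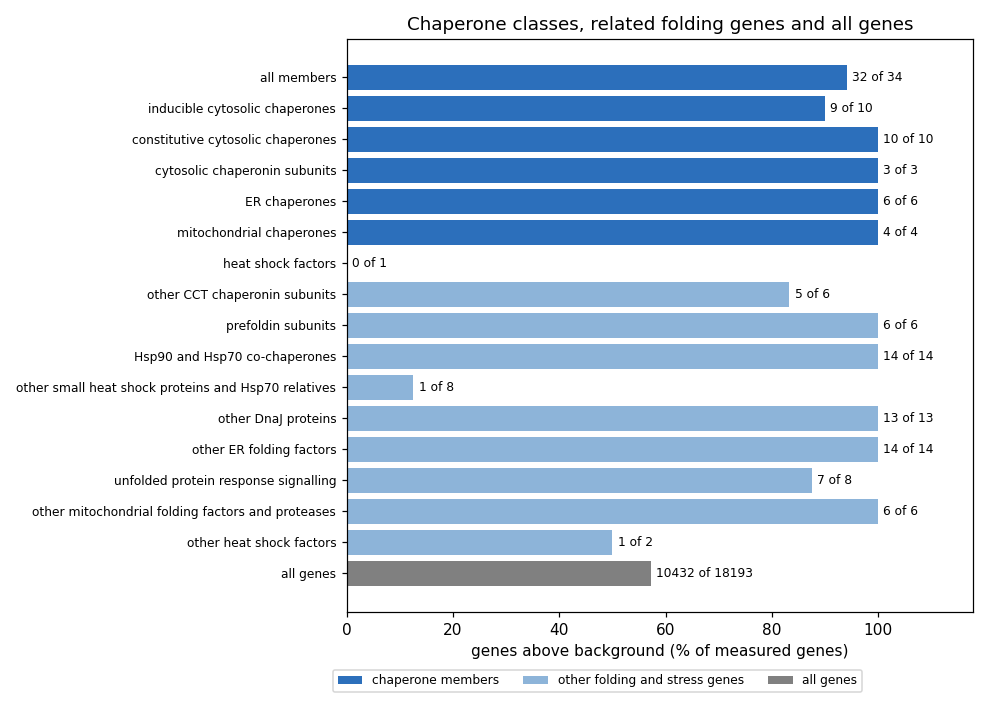
Share of measured genes above background (x axis, percent) for the chaperone classes (dark blue), the lists of related folding and stress genes (light blue) and all genes (grey), with counts beside the bars. Every list with more than 2 measured genes lies above the 57.3% of all genes, except the other small heat shock proteins and Hsp70 relatives with 1 of 8.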

How the data were processed

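The authors deposited linear array intensity values, with a single value for each probe set on each array. Per the submitters' processing notes they used GCOS, the scanner maker's software; how it summarised and scaled the probes is not given in the sources used here. A mean trimmed by 2% on both sides came to 1500.01 for all 3 arrays, which shows that the deposited intensity values share a scale. With 3 arrays, precision is limited by their number.

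From the deposited intensity values log2 was taken with no pseudocount. Of 45101 probe sets, 64 controls, 932 with several symbols and 9160 with none were left out. Where a gene had several probe sets, as 9010 did, the brightest by mean log2 signal stood for it. The distance from background was tested with limma 3.58.1 in R 4.3.3 (lmFit with an intercept, eBayes, one-sided, Benjamini-Hochberg over all 18193 genes or 34945 probe sets). Each SE carries the spread of the background levels too. The code was tested on simulated data. Symbols of all 34 members matched RefSeq by Entrez ID.

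The members, classes, lists and tests were chosen with earlier results of these data known. Named genes are all members, the first 2 above and the first not above background in each related list, and members whose SD over the arrays passed the 90th percentile. Alternatives were other background levels, scalings, pseudocounts, probe set rules and leaving out each array.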

Additional observations from a re-analysis of the deposited data

How the results depend on the processing

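Of 475 member distances under the alternatives, 462 kept their direction and call, 4 kept the direction but were no longer called, and 9 changed sign, counting 1 for each member and setting. Part of this count was fixed in advance. The setting that asks for a signal above the level on every array repeats the main distances and p-values. A common background level for all arrays, or leaving out the dimmest genes, leaves each distance as it was, so no sign could change there. Members above background numbered 32 in 11 of 14 alternatives (including each array left out, with 9951 to 10385 of all genes). In those 11 the share of all genes above background ran from 52.9% (99th percentile of the chemosensory genes) to 78.3%. The latter was without the dimmest 25% of genes, where 33 members were tested. Members numbered 30 with the mean over probe sets (50.4% of all genes) and 31 without cross-hybridising probe sets (55.9% of all). They numbered 22 with the lowest probe set of each gene (32.8% of all). The last setting takes the dimmest probe set by construction, and leaves 5974 genes above background and 6 constitutive members. With it, distances turned to -1.09 for Hsp90aa1, -0.33 for Hspb8, -3.64 for Hspa12a, -1.04 for Cct3, -0.25 for Hspa13, -0.81 for Dnajc3 and -3.22 for Hspa9. Hspa12a also turned with the mean over probe sets (-1.05) and without cross-hybridising ones (-0.33). The members' median deviation turned to -0.10 in replicate 1 and 0.10 in replicate 3 with centring on genes above background (added after seeing the data). All genes above background had -0.03 and 0.02 there. Without centring the members' median deviation turned to -0.04 in replicate 1 and 0.0505 in replicate 3, beside 0.03 and -0.03 for all genes above background. After quantile normalization the members' median deviation was 0.0064 in replicate 3 and -0.03 in replicate 2, against -0.15 and 0.01 with median centring. All genes above background had -0.03 in replicate 3 and 0.01 in replicate 2 after quantile normalization. The cause was not tested. The median SD over arrays with quantile normalization was 0.11 for the members and 0.16 for all genes above background. Cryab was not tested without the dimmest 25% of genes. No paired analysis was possible because the series holds 1 group. Signal over background was low for Hspa1a, Hspa2 and Hspb8, and Hspa1a and Hspa2 kept their call under all 14 alternatives. For Hspa1a the call was close to the threshold with the 99th percentile of the chemosensory genes (distance 0.63, limma adjusted p = 0.0474).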
